A study of Mus musculus with 14 samples.

Results

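The transcripts of 9 genes of meiotic crossover formation (Msh4, Msh5, Hfm1, Tex11, Rnf212, Ccnb1ip1, Cntd1, Mlh3 and M1ap) were followed in wild-type and Adad2 mutant mouse testes. The genes were chosen by name for their role, and each was measured as the sum of the expected counts of all its annotated transcripts, 49 transcripts in all. They are 9 of 53239 gene symbols in the files, and of 102531 features once assembled testis transcripts are included. All 9 could be tested in the 4 comparisons of genotype or fraction, and 8 of 9 in the test of whether the fractions differ more in 1 genotype than in the other.

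The study asked how the RNA-binding protein ADAD2 affects transcript abundance and ribosome association in male germ cells. Testes were taken from C57BL/6 males at 21 days post partum (dpp), when meiotic germ cells are abundant and the first spermatids have formed. Each testis lysate gave a total RNA library (input) and a library of RNA precipitated with an antibody to HA (IP), so that 14 libraries came from 7 animals. All animals carried 1 Rpl22HA allele, which tags a ribosomal protein after Cre recombination, and Stra8iCre, which acts in differentiating spermatogonia, so the tagged ribosomes are those of these cells and their descendants. The wild type (Adad2+/+) comprised animals 121, 140 and 17, and the mutant (Adad2M/M) animals 12, 69, 93 and 94.

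Crossovers are exchanges between homologous chromosomes that hold each pair together until the first meiotic division. They arise from programmed DNA double-strand breaks, most of which are repaired without exchange, and a conserved group of proteins stabilizes the few intermediates that will become crossovers. MSH4 and MSH5 form a clamp on these intermediates, HFM1 is a helicase, TEX11 is a scaffold, RNF212 and CCNB1IP1 (HEI10) are RING-domain proteins with opposed effects on the number of sites, CNTD1 is a cyclin-like protein needed to reduce that number to the final crossovers, MLH3 is part of the nuclease that resolves them, and M1AP is a germ cell protein needed for meiosis in males.

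Library totals lay between 22832564 and 30241725 expected counts. Annotated genes above 0 ranged from 25319 to 27791 in wild-type input, but numbered 16024 in mutant 12, 15438 in mutant 69, 21334 in mutant 93 and 27002 in mutant 94. In IP they ranged from 19655 to 21880 in the wild type and from 12744 to 15024 in the mutant. The crossover genes showed a similar pattern over their 49 transcripts. In wild-type input 27 to 33 were above 0, and 16, 16, 20 and 29 in input of mutants 12, 69, 93 and 94. In IP 20 to 28 were above 0 in the wild type and 11 to 18 in the mutant. There mutant 12 had the fewest of these transcripts, and mutant 69 the fewest annotated genes. The cause of this was not tested, and the genotype results that moved most without mutants 12 and 69 are also given without them. Adad2 itself was at 25.0 to 30.1 CPM (counts relative to library size, scaled by TMM over all 14 libraries) in wild-type input and 5.04 to 11.3 in mutant input, and at 99.2 to 108.7 against 6.33 to 11.3 CPM in IP. Stra8, a gene of the Cre lineage, was 6.09-fold higher in IP than in input in the wild type (edgeR adjusted p = 0.00634). Of the Sertoli cell markers, 5 of 7 tested fell in wild-type IP relative to input, where their summed level was 23.9 to 53.4 CPM against 209 to 242 CPM in input.

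In the wild type, levels in TPM, the unit of abundance corrected for transcript length, placed Cntd1 first in input with a mean of 51.6 ± 5.47 TPM (SD, n = 3). Mlh3 followed at 16.8 ± 3.10, Msh4 at 10.7 ± 1.16, Tex11 at 9.53 ± 0.661 and Ccnb1ip1 at 7.46 ± 0.350 TPM. The lowest were Msh5 at 4.88 ± 0.425, M1ap at 3.97 ± 0.842, Rnf212 at 3.56 ± 0.889 and Hfm1 at 0.973 ± 0.0808 TPM. Neighbours in this order did not overlap between the 3 animals, except Msh4 with Tex11, Msh5 with M1ap and M1ap with Rnf212. In wild-type IP the order of the means changed: Cntd1 stayed first at 174 ± 10.9 TPM. Tex11 (40.3 ± 2.79), M1ap (35.8 ± 5.84) and Ccnb1ip1 (35.4 ± 0.400 TPM) now had higher means than Mlh3 (27.9 ± 6.07), Msh4 (23.3 ± 3.33) and Msh5 (13.5 ± 2.03 TPM). Among these, M1ap (30.1 to 41.7 TPM) overlapped with Tex11, Ccnb1ip1 and Mlh3 (21.0 to 32.4 TPM), and Mlh3 with Msh4. Rnf212 (4.95 ± 0.936) and Hfm1 (1.04 ± 0.221 TPM) remained the lowest. In mutant IP, Mlh3 had the lowest mean, 9.71 ± 7.65 TPM (n = 4), but its values overlapped with those of Rnf212, Msh5, Hfm1 and Msh4. The means of Rnf212 (10.3 ± 10.3) and Hfm1 (16.8 ± 19.9 TPM) included 24.6 and 45.4 TPM in mutant 69 and 0 in mutant 12. In CPM, which are not corrected for length, the mutant IP mean was 35.1 for Mlh3 and 3.48 for Rnf212.

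**Figure D1:**
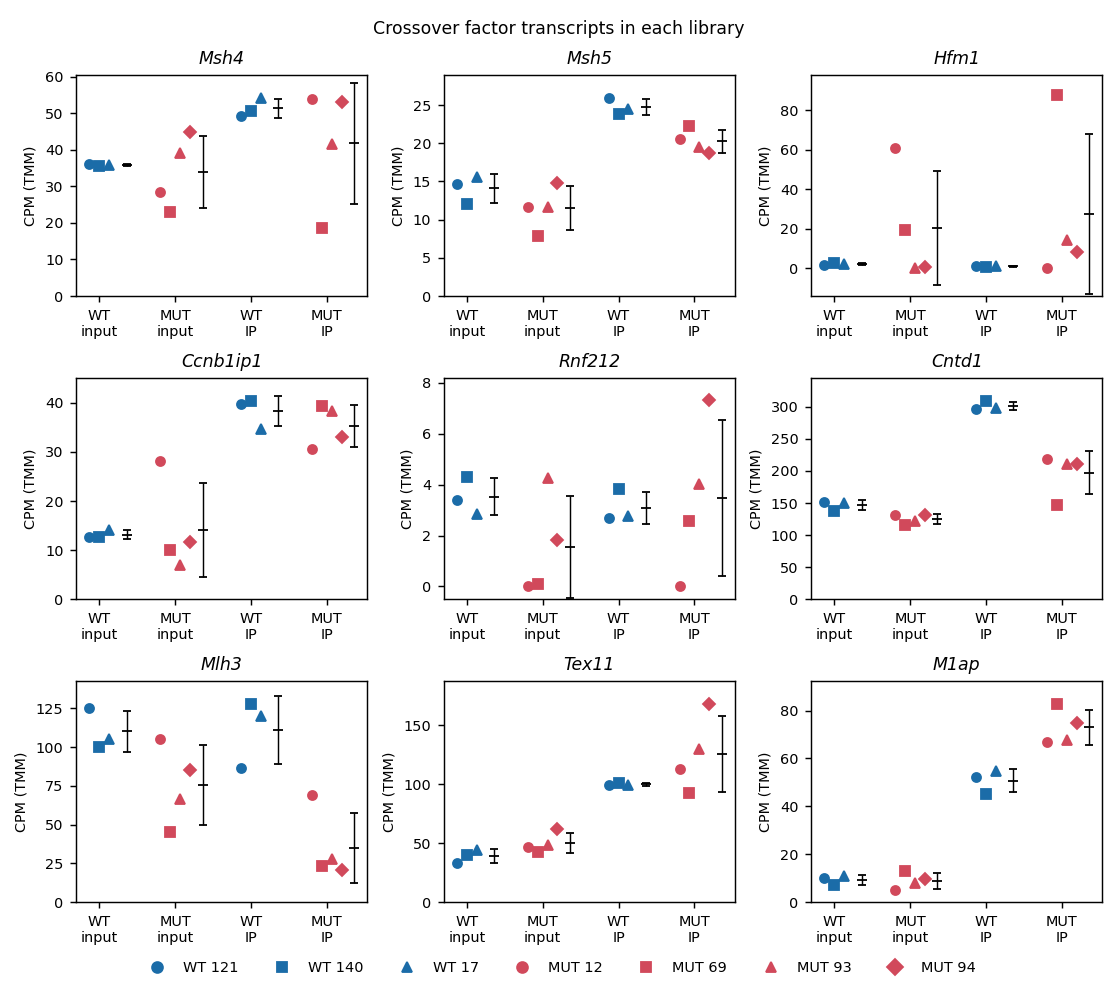
Level of each crossover gene in every library, in TMM-scaled CPM (linear axis), for wild-type (WT, blue) and mutant (MUT, red) input and IP. Symbols mark animals, and the bar beside each group is the mean ± SD (n = 3 WT, 4 MUT). In IP, the 4 mutants lay below the 3 wild-type animals for Msh5, Mlh3 and Cntd1 and above them for M1ap.

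Crossover gene transcripts were first compared between IP and input within the wild type, which asks how strongly each was associated with the tagged ribosomes. Of 9 genes, 6 were higher in IP and none lower (edgeR quasi-likelihood test with the animal as block, adjusted p under 0.05). Over all 34864 features tested, 13% were higher and 6.37% were lower in IP. The median log2 ratio was 1.13 over the 9 genes and -0.60 over all features. This is a comparison of scaled levels, in which the IP also loses the RNA of cells without tagged ribosomes.

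M1ap had the highest ratio. Its levels were 9.86, 7.07 and 10.7 CPM in input of animals 121, 140 and 17, and 52.4, 45.4 and 54.6 CPM in IP. Every IP value lay above every input value, and the log2 fold change was 2.79 (SE 0.14, edgeR adjusted p = 0.00634). Ccnb1ip1, which encodes the ubiquitin ligase HEI10, had 12.6, 12.6 and 14.1 CPM in input against 39.7, 40.3 and 34.8 CPM in IP. Its log2 fold change was 1.86 (SE 0.17, edgeR adjusted p = 0.00804). Tex11, the X-linked scaffold gene, had 32.8, 40.2 and 44.0 CPM in input and 99.2, 101.3 and 99.2 CPM in IP, with a log2 fold change of 1.68 (SE 0.14, edgeR adjusted p = 0.00742). For both genes the fractions did not overlap, and the 3 IP libraries were closer to each other than the 3 inputs for Tex11.

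Cntd1 stood at 152, 138 and 151 CPM in input and 297, 309 and 299 CPM in IP, a log2 fold change of 1.35 (SE 0.08, edgeR adjusted p = 0.00634). The clamp genes had smaller values. Msh5 had 14.7, 12.0 and 15.6 CPM in input against 25.9, 23.9 and 24.4 CPM in IP (log2 fold change 1.13, SE 0.17, edgeR adjusted p = 0.0204). Msh4 had 36.2, 35.6 and 35.7 CPM in input against 49.2, 50.6 and 54.1 CPM in IP (0.83, SE 0.10, adjusted p = 0.0142 by edgeR). No IP value overlapped with an input value for any of these genes. None of the 6 genes passed the test when animal 121 or animal 140 was left out, and 4 passed without animal 17, although the log2 fold changes then lay within 0.74 to 2.80.

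The remaining genes were not called in wild-type IP. Mlh3 was at 125, 100.1 and 105 CPM in input and 86.4, 128 and 120 CPM in IP, so that animal 121 was lower in IP and the others higher (log2 fold change 0.31, SE 0.19, edgeR adjusted p = 0.310). Rnf212 was at 2.86 to 4.31 CPM in input and 2.68 to 3.82 CPM in IP (0.11, SE 0.52, adjusted p = 0.892 by edgeR). In CPM each wild-type animal was lower in IP (ratios 0.784, 0.886 and 0.962), the other direction from the fit. Hfm1 was at 1.58 to 2.54 CPM in input and 0.915 to 1.41 CPM in IP (-0.52, SE 0.84, adjusted p = 0.675 by edgeR). These last genes rested on few counts, with 64.4 to 112 expected counts a library for Rnf212 and 21.1 to 65.9 for Hfm1.

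In the mutant, 3 of the 9 genes were higher in IP than in input and 1 was lower, beside 6.35% higher and 3.56% lower among all 22918 features tested. M1ap was at 5.19, 13.1, 7.76 and 9.52 CPM in input of mutants 12, 69, 93 and 94, and at 66.7, 82.7, 67.9 and 74.8 CPM in IP. The log2 fold change was 3.11 (SE 0.29, edgeR adjusted p = 0.0028), and no IP value came near an input value. Tex11 was at 46.6, 42.8, 48.8 and 62.0 CPM in input and 113, 92.2, 130 and 168 CPM in IP (1.31, SE 0.17, adjusted p = 0.0072 by edgeR). Cntd1 was at 131, 116, 122 and 131 CPM in input and 219, 148, 211 and 211 CPM in IP (0.64, SE 0.15, adjusted p = 0.0492 by edgeR). All 4 mutants were higher in IP than in input for each of these genes.

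Mlh3 was the gene that fell. It was at 105, 45.2, 66.8 and 85.4 CPM in mutant input and at 68.8, 23.2, 27.5 and 20.8 CPM in mutant IP, lower in IP in every animal. This gave a log2 fold change of -1.22 (SE 0.26, edgeR adjusted p = 0.0360). With limma on log2(TPM + 0.1) the difference was -0.22 (adjusted p = 0.759), a change of scale that moved the value by more than 1.5 times. Leaving out mutants 12 and 69 together ended all 4 calls, and the values were then 3.08 for M1ap, 1.46 for Tex11, 0.77 for Cntd1 and -1.63 for Mlh3, with edgeR adjusted p from 0.0594 to 0.124.

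Ccnb1ip1, Msh5, Msh4, Rnf212 and Hfm1 were not called between the mutant fractions. Ccnb1ip1 was at 28.2, 9.97, 6.85 and 11.6 CPM in input and 30.6, 39.5, 38.4 and 33.1 CPM in IP (log2 fold change 1.54, SE 0.54, edgeR adjusted p = 0.160; DESeq2 adjusted p = 0.0143). The input of mutant 12 came nearest to the IP values, and the fractions did not overlap. Msh5 was at 11.7, 7.82, 11.7 and 14.8 CPM in input and 20.5, 22.3, 19.5 and 18.7 CPM in IP, again without overlap (0.85, SE 0.60, adjusted p = 0.438 by edgeR). Msh4 was at 28.4, 23.1, 39.0 and 44.9 CPM in input and 53.9, 18.5, 41.6 and 53.2 CPM in IP, and mutant 69 was lower in IP than in input (0.23, SE 0.30, adjusted p = 0.679 by edgeR).

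**Figure D2:**
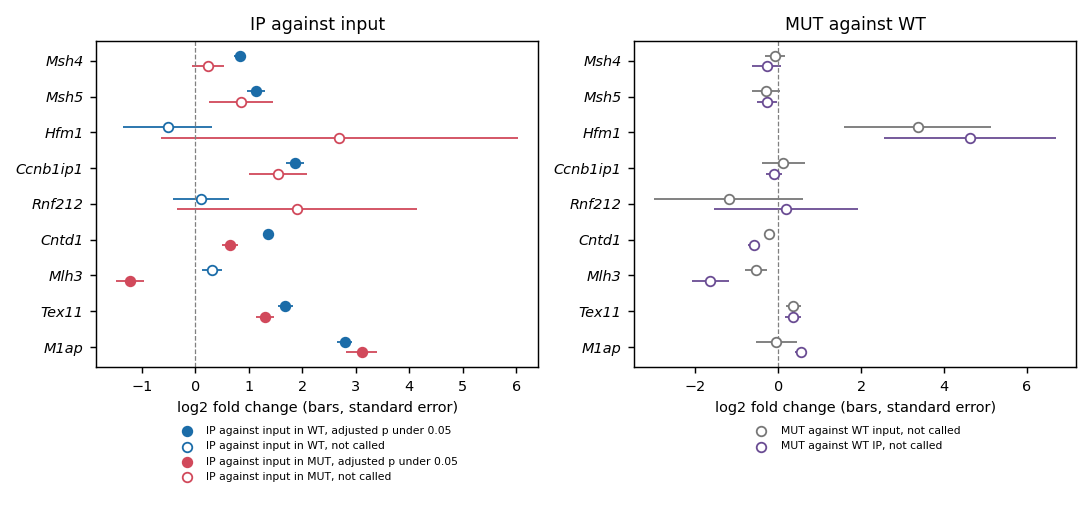
Log2 fold change with its standard error (edgeR) of each crossover gene for IP against input in each genotype (left) and for mutant against wild type in each fraction (right). Filled points have an adjusted p under 0.05. In the left panel 6 wild-type and 4 mutant points are filled, and in the right panel none is.

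Genotypes were next compared in input, that is, in the RNA of the whole testis. In such bulk samples fewer cells of a type and less RNA per cell cannot be told apart. None of the 9 genes was called by edgeR, DESeq2 or limma, and 1 had an unadjusted p under 0.05. Over all 36572 features, 0.0082% were called by edgeR and 2325 had an unadjusted p under 0.05. Cntd1 was that gene: the 4 mutants (116 to 131 CPM) lay below the 3 wild-type animals (138 to 152 CPM), with a log2 fold change of -0.22 (SE 0.10, edgeR adjusted p = 0.780). In CPM it was the 1 gene of the 9 whose genotypes did not overlap in input, as was so for 13.8% of all features. In TPM neither Cntd1 nor Mlh3 overlapped, and Mlh3 was at 14.6 to 20.3 TPM in the wild type and 6.62 to 13.1 TPM in the mutant. The share over all features was not measured in TPM.

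Most of the other genes split the mutants. For Msh4, mutants 12 and 69 were below the wild-type range of 35.6 to 36.2 CPM and mutants 93 and 94 above it, so that the log2 fold change was -0.08 with all mutants and 0.22 without 12 and 69. For Ccnb1ip1, mutant 12 was above the wild-type range at 28.2 CPM and the other 3 below it at 6.85 to 11.6 CPM (log2 fold change 0.13, or -0.52 without mutants 12 and 69). For Tex11, mutants 12, 93 and 94 were above the wild-type maximum of 44.0 CPM and mutant 69 within the range (0.36, SE 0.18, adjusted p = 0.940 by edgeR). For Mlh3, mutant 12 was within the wild-type range of 100.1 to 125 CPM and the other 3 below it (-0.53, SE 0.26, adjusted p = 0.944 by edgeR). For M1ap, the 4 mutants spanned 5.19 to 13.1 CPM around a wild-type range of 7.07 to 10.7 CPM (-0.04, SE 0.50).

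The low genes differed most from animal to animal. Hfm1, the helicase gene, was at 1.58, 2.54 and 1.98 CPM in wild-type input, and at 61.1, 19.6, 0.316 and 0.489 CPM in input of mutants 12, 69, 93 and 94. Mutants 12 and 69 were thus far above every wild-type animal and mutants 93 and 94 below. Its log2 fold change was 3.36 (SE 1.77, edgeR adjusted p = 0.99997), and it turned to -2.36 without mutants 12 and 69. Rnf212 was at 3.41, 4.31 and 2.86 CPM in wild-type input and at 0, 0.102, 4.26 and 1.81 CPM in mutant input, where mutant 12 had no count and mutant 69 about the 0.106 CPM that correspond to 3 counts. A count of 0 in mutant 12 allows a level of up to 0.115 CPM, for counting error only. For Rnf212 the log2 fold change was -1.19 (SE 1.79, edgeR adjusted p = 0.99997), and -0.21 without mutants 12 and 69.

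In IP, the comparison of genotypes asks which transcripts changed among the RNA bound to tagged ribosomes. None of the 9 genes passed edgeR, beside 0.00764% of the 26186 features tested, and 3 had an unadjusted p under 0.05, as did 3047 of all features. DESeq2 called 4 of 9, namely Mlh3 and Cntd1 lower and M1ap and Hfm1 higher, beside 9.56% of all features, and limma called none. In CPM, genotypes did not overlap for 4 of 9 genes (Msh5, Mlh3 and Cntd1 lower, M1ap higher), beside 16.8% of all features. In TPM, Cntd1 and M1ap stayed apart, but Mlh3 and Msh5 overlapped. Mlh3 was at 21.2 TPM in mutant 12 and 21.0 TPM in wild type 121. Msh5 was at 10.5 to 12.0 TPM in the mutant and 11.4 to 15.5 TPM in the wild type. The median log2 fold change was -0.09 over the 9 genes and -0.15 over all features.

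Mlh3, the nuclease gene, had the lowest log2 fold change of the 9 genes. Its wild-type IP levels were 86.4, 128 and 120 CPM, and those of mutants 12, 69, 93 and 94 were 68.8, 23.2, 27.5 and 20.8 CPM. Mutant 12 was nearest to the wild type and the other 3 mutants stood together well below it. The log2 fold change was -1.64 (SE 0.44, edgeR adjusted p = 0.114; DESeq2 adjusted p = 0.00457), and -2.21 without mutants 12 and 69 (edgeR adjusted p = 0.0719). Cntd1 levels were 297, 309 and 299 CPM in wild-type IP against 219, 148, 211 and 211 CPM in mutant IP, with mutant 69 the lowest. The log2 fold change was -0.59 (SE 0.15, edgeR adjusted p = 0.114; DESeq2 adjusted p = 0.0113), and -0.52 without mutants 12 and 69 (edgeR adjusted p = 0.0818). Cntd1-201, which carried over 99% of its counts, shares 1394 of its 2335 bases with exons of Becn1 on the opposite strand, and whether the quantification used the strand is not given in the sources used here. Becn1 was at 210 to 258 CPM in wild-type IP and 180 to 219 CPM in mutant IP, and its part in the Cntd1 result was not tested.

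M1ap was higher in mutant IP in every animal. Wild-type IP had 52.4, 45.4 and 54.6 CPM and mutant IP 66.7, 82.7, 67.9 and 74.8 CPM. M1ap had a log2 fold change of 0.55 (SE 0.15, edgeR adjusted p = 0.114; DESeq2 adjusted p = 1.97e-04), and 0.48 without mutants 12 and 69. In CPM, Msh5 was lower in every mutant, at 20.5, 22.3, 19.5 and 18.7 CPM against 25.9, 23.9 and 24.4 CPM in the wild type. Its log2 fold change was -0.26 (SE 0.24, edgeR adjusted p = 0.99999, DESeq2 adjusted p = 0.9997). Tex11 was at 113, 92.2, 130 and 168 CPM in mutant IP, 3 values above and 1 below the narrow wild-type range of 99.2 to 101.3 CPM (0.35, SE 0.20, adjusted p = 0.719 by edgeR, and 0.57 without mutants 12 and 69).

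Msh4 in mutants 12 and 94 matched the wild-type IP range of 49.2 to 54.1 CPM, whereas mutant 93 (41.6 CPM) and mutant 69 (18.5 CPM) were below it (-0.27, SE 0.35, adjusted p = 0.99999 by edgeR, and -0.12 without mutants 12 and 69). Ccnb1ip1 spanned 30.6 to 39.5 CPM in mutant IP and 34.8 to 40.3 CPM in wild-type IP (-0.09, SE 0.19). Hfm1 was at 1.08, 0.915 and 1.41 CPM in wild-type IP and at 0, 87.5, 14.5 and 8.45 CPM in mutant IP. The 3 mutants with any count were all above the wild type, and mutant 12, which had the highest Hfm1 input level of all animals, had none in IP, where a count of 0 allows up to 0.111 CPM. For Hfm1 the log2 fold change was 4.63 (SE 2.08, edgeR adjusted p = 0.481; DESeq2 adjusted p = 0.0141). It was 2.76 without mutant 69 and 3.33 without mutants 12 and 69, with edgeR adjusted p of 0.846 and 0.120. Rnf212 was at 2.68, 3.82 and 2.75 CPM in wild-type IP and at 0, 2.59, 4.02 and 7.33 CPM in mutant IP (0.19, SE 1.74, and 0.87 without mutants 12 and 69).

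The spread between mutants was wider than between wild-type animals for all 9 genes in both fractions. The median coefficient of variation of the 9 genes was 13.3% in wild-type and 34.0% in mutant input, and 7.99% and 25.5% in IP. Over all features with a mean of at least 10 CPM the medians were 11.3% and 26.9% in input (11270 features) and 12.5% and 29.8% in IP (9672 features). With a minimum mean of 1 CPM they were 20.2% and 58.1% in input (26061 features) and 21.2% and 63.5% in IP (19457 features). Germ cell markers moved with genotype as well. The summed level of 8 late pachytene markers was 3281 to 3708 CPM in wild-type and 2348 to 2697 CPM in mutant input, and 6530 to 7149 against 4834 to 5079 CPM in IP, with all 8 below 0 on the log2 scale in both fractions and none called by edgeR (DESeq2 called 3 in input and 4 in IP). The summed level of 8 early meiotic markers overlapped between genotypes in both fractions (1161 to 1231 against 902 to 1372 CPM in input, 2481 to 2914 against 2448 to 2752 CPM in IP). Of its 8 genes, Stra8 (log2 fold change 0.82) and Prdm9 (0.61) were called higher in mutant IP by DESeq2 and none by edgeR. Somatic markers were mostly above 0 in mutant input: 6 of 7 for Sertoli cells and 6 of 6 each for Leydig cells, macrophages, and vessels and blood. Of these DESeq2 called the Sertoli cell markers Rhox5 and Vim higher, and edgeR none. Summed Sertoli cell levels were 209 to 242 CPM in wild-type and 242 to 324 CPM in mutant input. The part of these markers in the crossover gene results was not tested.

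The change of IP/input with genotype was then tested directly, as the interaction of fraction and genotype, for the 8 genes with a count in every input. None was called by edgeR or DESeq2, 2 had an unadjusted p under 0.05, and 0% of the 16014 features tested were called by edgeR (1156 had an unadjusted p under 0.05). Mlh3 had a log2 difference of -1.23 (SE 0.35, edgeR adjusted p = 0.443; DESeq2 adjusted p = 0.0568), and Cntd1 of -0.40 (SE 0.17, adjusted p = 0.671 by edgeR). Without mutants 12 and 69 these were -1.66 and -0.30. The other 6 ranged from -0.29 for Msh4 to 3.50 for Hfm1. That 4 genes were called between fractions in the mutant and 6 in the wild type is therefore no measured difference between genotypes.

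Ribosome association was also expressed per animal as IP TPM over input TPM, and the genotypes were compared by an exact two-sided permutation test over the 7 animals, whose smallest possible p is 0.0286. TPM and TMM-scaled CPM set IP and input on different scales, so these ratios are compared between animals and not with the log2 fold changes above. None of the 9 genes passed 0.05. M1ap ratios were 7.62, 9.88 and 9.96 in the wild type and 27.97, 11.0, 16.1 and 14.9 in mutants 12, 69, 93 and 94, so that every mutant was above every wild-type animal (exact p = 0.0571). Mlh3 ratios were 1.03, 1.96 and 2.22 in the wild type and 1.61, 0.903, 0.727 and 0.503 in the mutant, with mutant 12 inside the wild-type range and above 1, although its CPM was lower in IP than in input (exact p = 0.143). Cntd1 ratios overlapped at 2.88 to 3.85 and 2.30 to 3.66 (exact p = 0.514). On the CPM scale Cntd1 was the 1 gene that passed, with a log2 difference of -0.40 in the mutant (exact p = 0.0286). That p is the smallest possible and was not adjusted for the 9 genes. On the CPM scale the M1ap ratios overlapped, with mutant 69 at 6.31 and wild type 140 at 6.41. The Mlh3 ratios did not overlap on that scale, at 0.243 to 0.653 in the mutant and 0.689 to 1.28 in the wild type, but did not pass.

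The clamp genes kept ratios above 1 in nearly all animals. Msh5 ratios were 2.47 to 2.95 in the wild type and 2.09 to 3.58 in the mutant (exact p = 0.629), and Msh4 ratios were 1.83 to 2.82 and 0.756 to 3.88 (exact p = 0.629), with mutant 69 the 1 animal below 1. Ccnb1ip1 ratios were 4.55 to 4.91 in the wild type and 2.36, 7.16, 10.3 and 5.38 in the mutant (exact p = 0.657). Tex11 ratios were 3.89 to 4.42 and 3.54 to 5.42 (exact p = 0.400). Some ratios of the low genes rested on few input counts: Rnf212 had 2.91 expected counts in mutant 69, and Hfm1 had 7.19 in mutant 93 and 14.2 in mutant 94. Hfm1 and Rnf212 have no ratio in mutant 12. The other 3 mutants had Hfm1 ratios of 4.07, 81.6 and 39.5 against 0.944 to 1.21 in the wild type, and Rnf212 ratios of 273, 2.05 and 6.20 against 1.08 to 1.90, but with 3 animals on each side the smallest exact p is 0.1, which both reached.

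**Figure D3:**
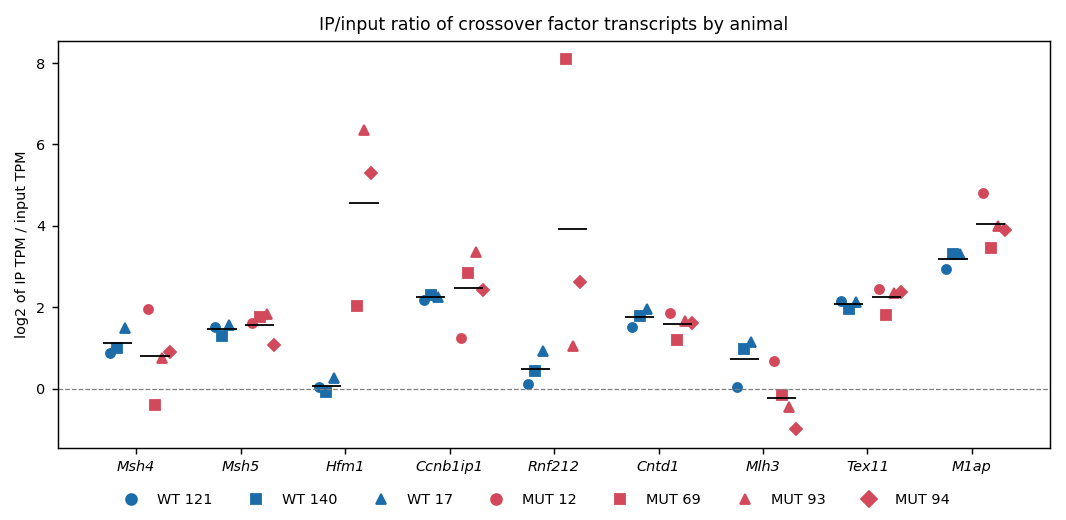
Ratio of IP TPM to input TPM on a log2 axis for each crossover gene and animal, with the mean of each genotype as a line. Mutant 12 has no point for Hfm1 and Rnf212 because a value was 0. M1ap is the gene with values in all 7 animals in which the mutants (11.0 to 27.97) lay wholly above the wild type (7.62 to 9.96).

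Partner genes were compared within libraries, where a ratio does not depend on scaling. The Msh4/Msh5 ratio of TPM was 2.07 to 2.27 in wild-type and 1.97 to 3.02 in mutant input (exact p = 0.400), and 1.41 to 1.98 against 0.650 to 2.49 in IP (exact p = 0.771). The Rnf212/Ccnb1ip1 ratio, without mutant 12, was 0.113 to 0.167 in wild-type and 0.224 to 0.657 in mutant IP, at the smallest exact p that 3 against 3 allow (0.1). None of these 4 comparisons passed 0.05; in input the Rnf212/Ccnb1ip1 ratio gave an exact p of 0.7.

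The transcripts behind these sums differed between genes. M1ap (chr6:82946902-83030309, GRCm38, plus strand), Ccnb1ip1 (chr14:50789248-50807732, minus strand) and Cntd1 (chr11:101279012-101296317, plus strand) were each carried by 1 coding transcript that held at least 98.7% of the counts in every library. Mlh3 (chr12:85234520-85270599, minus strand), Msh5 (chr17:35028605-35046745, minus strand), Msh4 (chr3:153857149-153906138, minus strand), Hfm1 (chr5:106840192-106926321, minus strand), Rnf212 (chr5:108729290-108774982, minus strand) and Tex11 (chrX:100838648-101059667, minus strand) were divided over several. How reads shared by overlapping isoforms were divided is an estimate of the quantification, so the isoform values are given as a description.

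Mlh3 counts were divided over 3 coding isoforms. In wild-type input, Mlh3-201 held 1903, 1227 and 2017 expected counts, 61.9% of the gene on average, and in wild-type IP it held 36.6, 671 and 302. In all 4 mutant IP libraries it was at 0. Each of these libraries instead had almost all Mlh3 counts in a single isoform, Mlh3-203 in mutant 12 (1854 expected counts) and mutant 94 (606), and Mlh3-202 in mutant 69 (651) and mutant 93 (855). Wild-type IP held both together, with 42.2 to 71.5% in Mlh3-202 and 24.2 to 34.2% in Mlh3-203. Coding isoforms made up 96.8 to 100% of Mlh3 counts in mutant IP, so the lower sum was a lower sum of coding transcripts. Mlh3-203 (ENSMUST00000220854) differs from Mlh3-201 and Mlh3-202 in, among other bases, its exon 3 of 13 (chr12:85262767-85262862, GRCm38, minus strand), a coding exon of 96 bases that neither of the other isoforms holds. The exon is shown 5′ to 3′. In IP, the main isoform of mutants 12 and 94 holds it and that of mutants 69 and 93 does not. Input differed: Mlh3-203 held 0 to 22.4% of Mlh3 counts in mutant input, and in input of mutant 12 Mlh3-202 held 95.8%.
Mlh3-203 exon 3: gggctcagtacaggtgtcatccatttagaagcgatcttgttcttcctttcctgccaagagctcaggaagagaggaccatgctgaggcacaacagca

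Msh5 counts in mutant IP were largely in an isoform annotated for nonsense-mediated decay. This isoform, Msh5-205 (ENSMUST00000172536), held 396, 646, 221 and 530 expected counts in IP of mutants 12, 69, 93 and 94, a mean of 75.5% of the gene. In wild-type IP it held 70.1, 0 and 0.13 counts, a mean of 3.76%, and in wild-type input 108, 42.3 and 106 counts, a mean of 23.5%. In mutant input it held 0 to 88.7%, a mean of 22.6%, and was above 0 in 2 of 4 libraries. Other forms with this annotation were present in wild-type IP. Msh5-211 held 0 to 37.0% there (mean 12.3%), Msh5-210 a mean of 2.86% and Msh5-209 a mean of 1.17%, and all of these were at 0 in mutant IP. The coding isoforms Msh5-201 and Msh5-202 together held 81.6, 58.0 and 92.0% of Msh5 counts in wild-type IP, and 28.3, 0, 51.8 and 0% in mutant IP, without overlap. In input they held 48.3 to 57.3% in the wild type and 88.6, 0, 69.6 and 71.7% in the mutant, where mutant 69 alone was below the wild type. Counted over coding isoforms alone, only mutants 12 and 93 had an Msh5 IP/input TPM ratio, and the log2 difference from the wild type was -1.29 (exact p = 0.1, the smallest that 2 against 3 animals allow). Over all isoforms it was 0.11 (exact p = 0.629). Among other differences, Msh5-205 lacks part of exon 20 of 25 of Msh5-202 (chr17:35030661-35030758, GRCm38, minus strand), 98 coding bases, a length that is not a multiple of 3. The missing stretch is shown 5′ to 3′ because Msh5-205, the main Msh5 isoform in IP of mutants 12, 69 and 94, does not hold it. In IP of mutant 93 the main isoform was Msh5-202 (51.8%), which holds it.
Msh5-202 part of exon 20: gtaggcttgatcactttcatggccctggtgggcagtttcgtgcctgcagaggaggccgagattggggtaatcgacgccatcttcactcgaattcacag

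**Figure D4:**
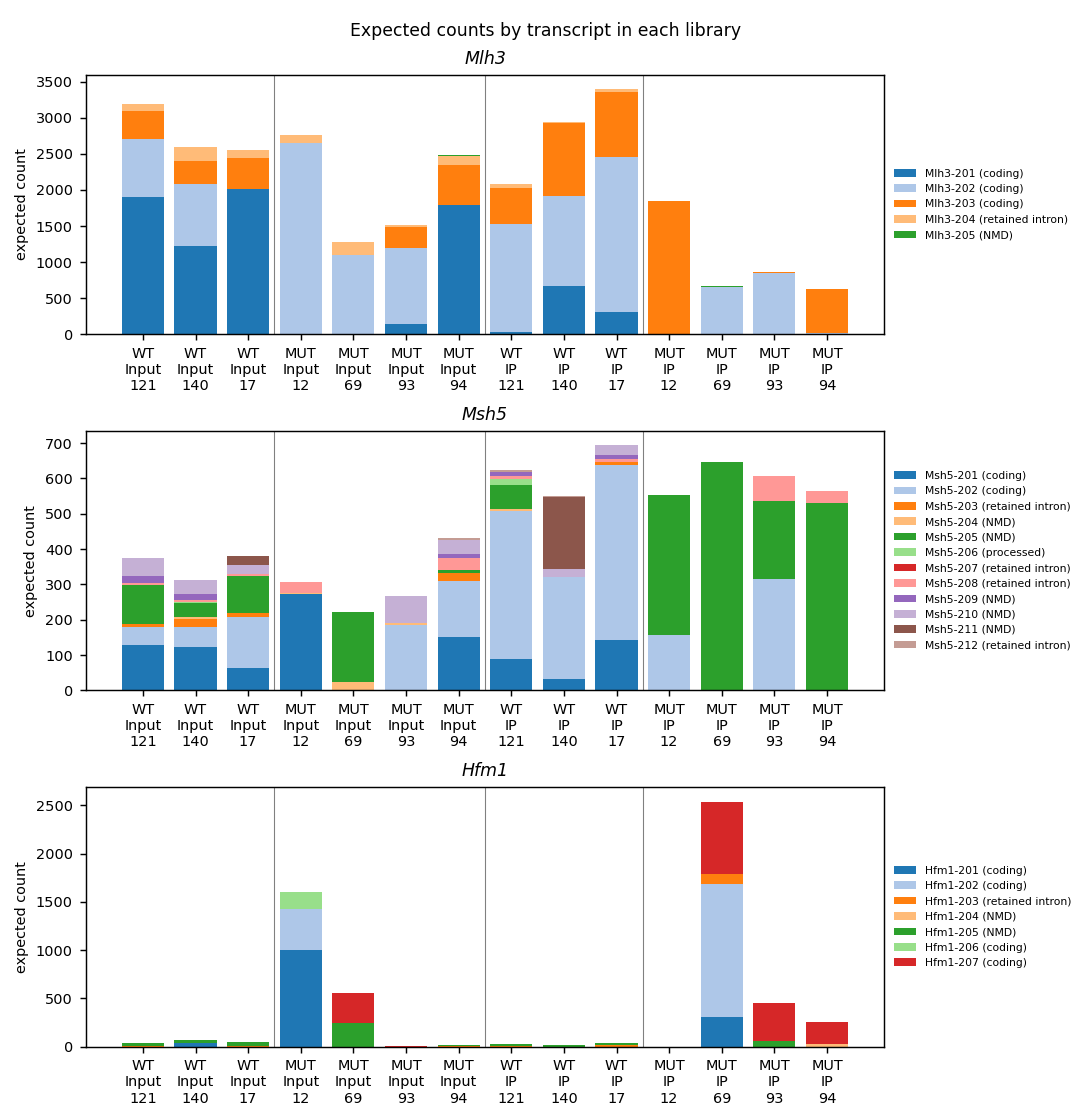
Expected counts of every annotated transcript of Mlh3, Msh5 and Hfm1 in each library, stacked, with the annotated type of each transcript (coding, nonsense-mediated decay (NMD), retained intron or processed). Mutant IP libraries hold 1 main Mlh3 isoform each, a large part of Msh5 in Msh5-205, and Hfm1 counts in 3 of 4 libraries.

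Hfm1 in the wild type consisted of non-coding forms in 5 of 6 libraries, and in input of animal 140 coding forms held 51.3% of its 65.9 counts. Hfm1-205, annotated for nonsense-mediated decay, held 25.4 to 44.9 expected counts in wild-type input and 20.7 to 21.4 in wild-type IP, and coding isoforms were at 0 in all 3 wild-type IP libraries. In the 5 mutant libraries above the wild-type range, most counts were in coding isoforms, which differed from animal to animal. The input of mutant 12 held 999 counts in Hfm1-201 and 429 in Hfm1-202, and the IP of mutant 69 held 1374 in Hfm1-202 and 747 in the short Hfm1-207. Hfm1-207 was also the main form in IP of mutants 93 (396 counts) and 94 (230 counts). Coding forms made up 88.0 to 95.7% of Hfm1 counts in these 3 IP libraries.

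Msh4 and Tex11 isoforms also differed between libraries. Coding isoforms of Msh4 together held 51.3 to 72.2% of its counts in wild-type input and 92.0 to 97.6% in wild-type IP, and 30.4 to 62.2% and 72.8 to 99.7% in the mutant, so that IP was richer in coding forms than input in all 7 animals. The remainder was mostly in retained-intron forms such as Msh4-207, with 161 to 265 expected counts in wild-type input and 0 to 72.6 in wild-type IP. Among the coding isoforms, Msh4-201 held 17.3 to 47.2% of Msh4 counts in wild-type IP and 0 to 99.7% in mutant IP, and Msh4-203 held a mean of 64.2% and 25.1%. Tex11 counts were split between the coding isoforms Tex11-201 and Tex11-203 in the wild type. There Tex11-203 held 3.95 to 61.95% in IP (mean 37.5%) and 0 to 63.6% in input. In mutant IP Tex11-203 was at 0 in all 4 libraries, and Tex11-201 held 84.3 to 100%. In mutant input Tex11-203 held 0 to 61.0%, so its share also varied widely between libraries of the other groups. In the IP of mutant 69, Rnf212 consisted of 75.0 counts in Rnf212-201, a transcript of 288 bases at 0 in all other libraries. Its TPM ratio of 273 in this animal was taken over 2.91 expected counts in input, about the floor of 3 counts. In CPM, which are not corrected for length, the ratio was 25.2.

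Other genes of crossover formation, 20 by name, were set beside the 9. They include Exo1, the genes of SHOC1 and SPO16 (AI481877 and 1700102P08Rik), Cdk2, the BLM helicase complex (Blm, Top3a, Rmi1, Rmi2) and the structure-specific nucleases and their scaffold (Mus81, Eme1, Gen1, Slx4). In the wild type, 11 of 20 rose in IP and 1 fell, beside 13% higher and 6.37% lower over all features. The median log2 fold change of the 20 was 0.96. Cdk2, whose kinase marks crossover sites, rose by 1.47 (edgeR adjusted p = 0.00634), 1700102P08Rik by 1.68 (0.00642), Top3a by 1.33 (0.00682) and Slx4 by 0.92 (0.00795). In the mutant, 3 of 20 rose and 1 fell, beside 6.35% higher and 3.56% lower over all features. 1700102P08Rik rose by 1.11 (edgeR adjusted p = 0.00549), Cdk2 by 0.88 (0.0169) and Slx4 by 0.55 (0.0358). Rmi1 fell by 1.31 on the log2 scale (0.00887). It was also the gene that fell in the wild type (log2 fold change -0.78, edgeR adjusted p = 0.0138).

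Between genotypes none of the 20 was called by edgeR or DESeq2. In input 6 were above and 14 below 0, with a median of -0.10 beside -0.18 over all features, and 1 had an unadjusted p under 0.05. The smallest p-values belonged to Slx4 (-0.38), Top3a (-0.31), Rmi1 (-0.23) and Mus81 (-0.34), with edgeR adjusted p from 0.765 to 0.99997. In IP the split was again 6 above and 14 below, with a median of -0.28 beside -0.15 over all features, and 4 had an unadjusted p under 0.05. These were 1700102P08Rik (-0.38), Top3a (-0.60), Cdk2 (-0.34) and Slx4 (-0.42), with edgeR adjusted p from 0.114 to 0.349. In the interaction, 6 of 19 tested were above 0 and 13 below, and none had an unadjusted p under 0.05; Exo1 (0.93), Cdk2 (-0.28), Blm (-0.34) and Gen1 (-1.15) had the smallest p-values (edgeR adjusted p from 0.750 to 0.803).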

How the data were processed

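In the study, 14 RNA libraries (total RNA, rRNA-depleted, stranded, paired-end) were made from 7 testes. The authors aligned reads to an Ensembl mouse transcriptome (GRCm38, mm10) extended with testis transcripts and estimated abundance with RSEM 1.3.3. The deposited files hold an expected count and a TPM value for each of 182829 transcripts, including 92 spike-in entries, which were left out here.

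Expected counts and TPM were summed over the transcripts of each symbol (GENCODE M21, 133445 of 133849 Ensembl entries matched), and 48888 assembled transcripts were kept as features. Rounded sums were tested with edgeR 4.0.16 (R 4.3.3; TMM, filterByExpr, robust quasi-likelihood test, Benjamini-Hochberg over all features, 0.05), with the animal as replicate block between fractions. TMM factors were computed within the libraries of each fit, and over all 14 libraries for the printed CPM. The interaction used features above 0 in every input. Standard errors were taken from the F statistic. Ratios per animal were compared by exact permutation. DESeq2 1.42.0, limma 3.58.1 on log2(TPM + 0.1) or log2(TPM + 1), other filters and scalings, and libraries left out were alternatives. The script was tested on simulated data. Input and IP of the same animal come from one lysate, which pairs them; their deviations from the group means correlated at 0.00892 to 0.0476.

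The text names all 9 members, up to 4 of the 20 other crossover genes with the smallest p in each comparison, and the 2 genes most like Msh4, Hfm1 and Tex11. For Rmi1 the wild-type value is given beside that of the mutant. The members and lists were chosen with earlier results of these data known. Animals are separate, with 3 wild types and 4 mutants. RNA-seq counts without molecular identifiers make intervals and floors cover counting error only. The floor was 3 counts. Sequences were read from the GENCODE M21 transcripts. One planned ratio of 2 genes is not reported here.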

Additional observations from a re-analysis of the deposited data

Results flagged for a closer look

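Each gene and group of 4 mutant libraries was searched for a library whose gap to its neighbour took up more of the group's range than Dixon's 95% critical value for 4 samples allows. Of 18 groups 3 had one, all in mutant IP. The critical value lets through about 1 in 20 groups of independent, normally distributed values. These genes share the same 4 libraries, so the 3 of 18 cannot be set against that rate, and the share over all features was not measured. For Mlh3, mutant 12 stood above the others at 68.8 CPM (gap over range 0.859). For Hfm1, mutant 69 stood above the others at 87.5 CPM (0.835). For Cntd1, mutant 69 stood below the others at 147.6 CPM (0.888). Groups of 3 wild-type libraries are too small for this check. In the interaction test and in the permutation test of IP/input TPM ratios no crossover gene passed 0.05 after adjustment or in exact form.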

How the results depend on the processing

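Calls between genotypes were the most dependent on the tool, since edgeR called 0 and DESeq2 4 of the 9 genes in IP. In wild-type IP against input, 6 genes were called in the main fit and 6 with no replicate block, and leaving out 1 animal gave 0 to 4. In mutant IP against input 4 were called, 3 with no replicate block (Mlh3 -1.12, edgeR adjusted p = 0.130), 2 without a filter on low counts, 2 at an adjusted p under 0.01, 0 without mutants 12 and 69, and 1 to 3 when 1 animal was left out. No block is possible between genotypes because the animals differ. IP/input ratios per animal gave 0 genes with TPM and 1 with CPM (Cntd1, -0.40). The cause of these differences was not tested, except that leaving out animals also leaves fewer samples.

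Some values not called in any setting changed sign. For mutant against wild-type input, M1ap was 0.026 with DESeq2, 0.025 with RLE factors and 0.029 with at least 10 counts in every library. Ccnb1ip1 was -0.32 and -0.26 with limma at pseudocounts of 0.1 and 1. Without mutants 12 and 69, Msh4 was 0.22, Ccnb1ip1 -0.52 and Hfm1 -2.36. For mutant against wild-type IP, Ccnb1ip1 was 0.0149 with DESeq2, 0.0145 with RLE and 0.0102 with the 10-count minimum, and Rnf212 was -0.46 with limma at 0.1. In wild-type IP against input, Rnf212 was -0.063 with the 10-count minimum and -0.062 with annotated genes alone, and Hfm1 0.068 and 0.041 with limma. In the interaction, Ccnb1ip1 was 0.0397 with DESeq2, 0.0416 with RLE, 0.074 with the 10-count minimum, 0.21 and 0.16 with limma and 0.45 without mutants 12 and 69. Tex11 was 0.021 with the 10-count minimum, 0.17 and 0.18 with limma and 0.058 without mutants 12 and 69, where Msh5 was -0.28. Among ratios, Rnf212/Ccnb1ip1 in IP was -0.35 with 0.1 TPM added. With coding transcripts alone, Msh4/Msh5 was -0.73 in input and 0.87 in IP, and IP/input was 0.21 for Msh4 and -1.29 for Msh5. With CPM, IP/input was -0.0196 for Ccnb1ip1 and -0.0574 for Tex11.

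Leaving out 1 animal also turned some uncalled values. In input the range was -0.21 to 0.060 for Msh4, -0.47 to 0.38 for Ccnb1ip1 and -0.31 to 0.14 for M1ap. For Rnf212 it was -0.43 to 0.61 between genotypes in IP and -0.0094 to 0.15 between wild-type fractions. In the interaction it was -0.21 to 0.13 for Msh5, -0.49 to 0.45 for Ccnb1ip1 and -0.28 to 0.043 for Tex11. For the ratios it was -0.50 to 0.15 for Msh4/Msh5 in IP, -2.76 to 0.25 for Rnf212/Ccnb1ip1 in input, and in IP/input -0.71 to 0.082 for Msh4 and -0.076 to 0.63 for Ccnb1ip1.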

Other observations

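Genes whose log2 CPM followed those of 3 crossover genes over the 14 libraries were looked up among 8310 protein-coding genes with a mean log2 CPM of at least 3. The closest to Msh4 were Mkln1 and Cdk12 (Pearson r = 0.94 for both), to Tex11 Rps3 and Abca2 (0.98 for both), and to Hfm1 Mocs3 (0.85) and Med11 (0.81). The libraries share fraction and genotype, so these values are a description and carry no test.

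Markers of other cells were measured beside the crossover genes. Spermatogonial markers were 4 of 6 above 0 in mutant input and 6 of 6 in mutant IP, round spermatid markers were 8 of 8 below 0 in input and 5 of 5 in IP, and none was called by edgeR, although DESeq2 called 3 of the spermatid markers lower in each fraction and the spermatogonial marker Uchl1 higher in mutant IP. The summed round spermatid level was 263 to 315 CPM in wild-type and 146 to 160 CPM in mutant input. In input, the summed Leydig cell, macrophage, and vessel and blood marker levels were 196 to 292, 53.7 to 79.5 and 87.1 to 187 CPM in the wild type and 215 to 428, 60.6 to 119.8 and 149 to 356 CPM in the mutant. The summed Leydig cell, macrophage, and vessel and blood marker levels in IP were 25.7 to 59.7, 4.16 to 12.7 and 6.71 to 31.3 CPM in the wild type and 2.96 to 39.6, 2.17 to 11.1 and 9.20 to 17.2 CPM in the mutant, with Lhcgr, Cd68, Lyz2, Kdr and Tek at 0 in all mutant IP libraries.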
